A study of Homo sapiens with 4 samples.

Results

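The 41 interferon-stimulated genes described here were taken as a list of symbols and matched to the deposited gene tables. All 41 were found, among 60612 genes listed, with 1 Ensembl identifier each. Poly(A) RNA was sequenced from both ends in HCT116 and RKO cells, which are established lines from human colorectal cancers. The libraries were HCT116 with AVEN overexpression (HCT116 OE), HCT116 wildtype for AVEN (HCT116 WT), RKO with AVEN overexpression (RKO OE) and RKO wildtype for AVEN (RKO WT), and each group is a single library. The AVEN protein restrains caspases and activates the ATM kinase. The sources used here do not give the construct, its promoter, or whether OE cells were a clone or a pool. Levels are the authors' FPKM values, that is, fragment counts scaled to transcript length and to the mapped total of the library, and genes without signal are listed at 0.0001 FPKM, called the floor below.

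Interferons are secreted when a cell senses foreign or misplaced nucleic acid. They bind receptors coupled to the kinases JAK1 and TYK2, which activate STAT2, and STAT2 joins IRF9 in a complex that binds the interferon-stimulated response element in promoters. The genes it turns on degrade viral RNA, block translation, trap or exclude virus particles, and raise the level of the sensors themselves. Many of them keep a low level without added interferon.

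AVEN stood at 2.96 FPKM in HCT116 OE and 1.53 in HCT116 WT, and at 4.43 in RKO OE and 1.34 in RKO WT. With 1 library per group, "higher" and "lower" describe the sequenced libraries and have no replicate check. Where an interval is given, it is a 95% exact conditional interval on fragments estimated from FPKM and covers counting error only. The fold for AVEN was 1.94 (1.16 to 3.41) in HCT116 and 3.32 (2.04 to 5.80) in RKO. By the estimate, 1 FPKM on 1 kilobase stood for 20.8, 18.6, 19.6 and 20.5 fragments in HCT116 OE, HCT116 WT, RKO OE and RKO WT. Of 8 colorectal epithelial markers, CDX2 lay between 4.38 and 5.44 FPKM in the 4 libraries, while CDH1 stood at 17.5 and 8.25 FPKM in HCT116 OE and WT and at 0.00834 and 0.00800 in RKO OE and WT. VIL1 was at or under 0.0278 FPKM in all 4 libraries and KRT20 was under 1. The 8 markers summed to 941 and 986 FPKM in HCT116 OE and WT, and to 85.7 and 50.0 in RKO OE and WT. Most of the RKO sums was KRT18, at 71.8 and 37.4 FPKM in OE and WT, while EPCAM stood at 2.02 and 3.08. Of 10 markers of blood, endothelial and stromal cells, 8 were under 1 FPKM in all 4 libraries, including PTPRC and CD3E. The others were COL1A1 (2.60 and 2.59 FPKM in HCT116 OE and WT, under 0.1 in RKO) and CD68 (1.3 and 1.68 FPKM in HCT116 OE and WT, 195 and 197 in RKO OE and WT). Their part in the results below was not tested, and in bulk RNA fewer cells of a type and less RNA per cell cannot be told apart.

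The interferon-stimulated genes spanned a wide range of levels in cells for which the labels name no interferon treatment. Of the 41, 21 reached 1 FPKM in HCT116 OE, 21 in HCT116 WT, 23 in RKO OE and 25 in RKO WT, which is 51.2%, 51.2%, 56.1% and 61.0%. Among protein-coding genes the share at 1 FPKM or more was 51.1%, 50.1%, 47.1% and 49.3% in the same order. In all 4 libraries, 17 members reached 1 FPKM, 4 reached 10 FPKM, and 14 stayed under 1 FPKM. The 4 at 10 FPKM or more throughout were ISG15, IFI30, IFITM2 and IFITM3. The member with the highest level in any library was BST2 in RKO WT.

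**Figure D1:**
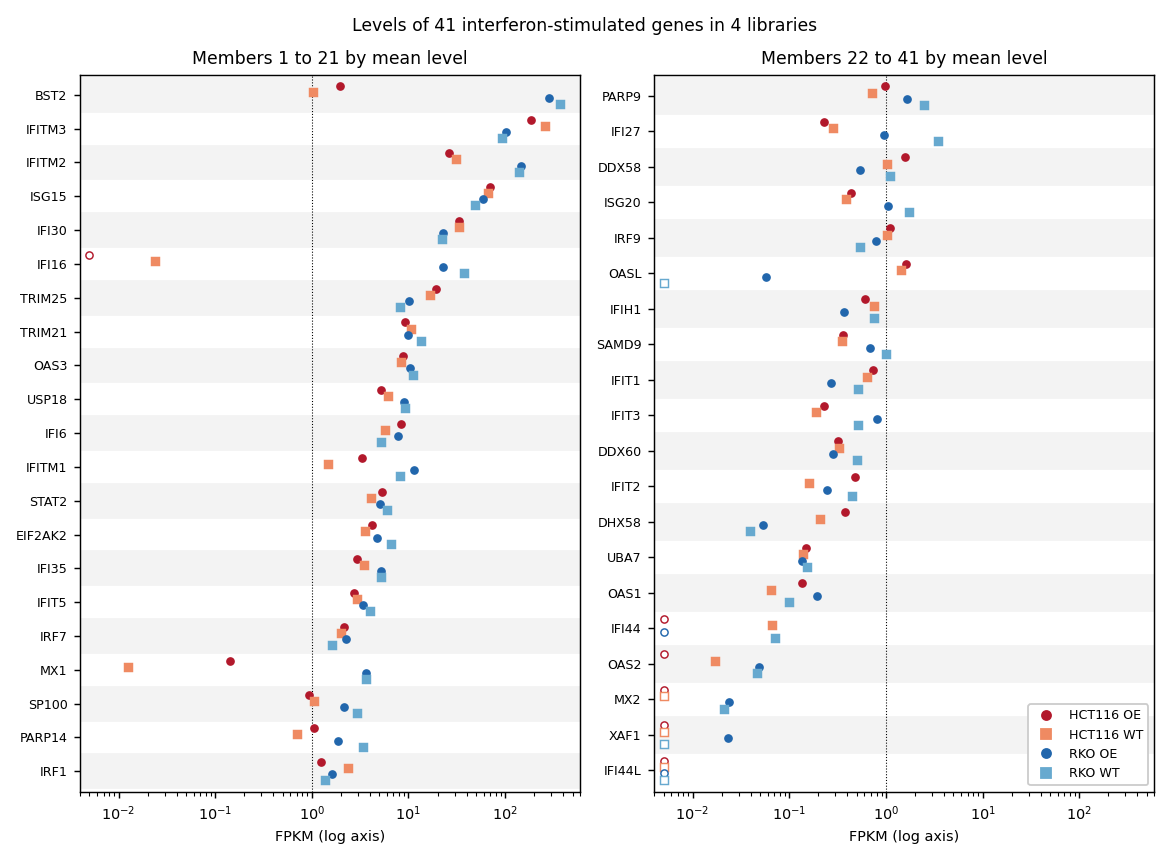
FPKM of the 41 interferon-stimulated genes (log axis) in each of the 4 libraries, ordered by mean level, with HCT116 in red and RKO in blue, circles for OE and squares for WT. Open symbols at the left edge are values under 0.005 FPKM, and the dotted line marks 1 FPKM. Colours separate more widely than circle and square for BST2, IFI16, MX1 and OASL.

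The transcription factors of the pathway were present at low levels in both lines. STAT2 stood at 5.34 and 4.14 FPKM in HCT116 OE and WT, and at 5.14 and 5.96 in RKO OE and WT. IRF9, the DNA-binding partner of STAT2, stood at 1.09 and 1.03 FPKM in HCT116 OE and WT, and at 0.784 and 0.533 in RKO OE and WT. IRF7, which drives interferon alpha genes, lay between 1.62 and 2.24 FPKM in the 4 libraries. IRF1, an activator also induced by interferon gamma, stood at 1.26 FPKM in HCT116 OE against 2.35 in HCT116 WT, and at 1.61 in RKO OE against 1.38 in RKO WT. The summed level of the 4 factors lay between 9.50 and 9.83 FPKM in all libraries.

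Among the IFIT genes, and among the neighbouring genes OAS1, OAS2 and OAS3, a single member carried most of the level. The IFIT genes, whose proteins bind viral RNA ends, lie on the plus strand of chromosome 10 between 89283694 and 89421001 in the GENCODE annotation of GRCh38. IFIT5 stood at 2.74 and 2.93 FPKM in HCT116 OE and WT and at 3.42 and 3.98 in RKO OE and WT, while IFIT1, IFIT2 and IFIT3 stayed between 0.161 and 0.815 FPKM. Of the oligoadenylate synthetases, which activate RNase L, OAS3 (chromosome 12, 112938352 to 112973249) stood at 8.81 and 8.45 FPKM in HCT116 OE and WT and at 10.3 and 11 in RKO OE and WT. Its neighbours OAS1 and OAS2 did not exceed 0.195 FPKM in any library. ISG15, a ubiquitin-like modifier, stood at 69.1 and 65.9 FPKM in HCT116 OE and WT and at 59.5 and 48.9 in RKO OE and WT. USP18, which removes ISG15 from proteins, lay between 5.21 and 9.20 FPKM. UBA7, the enzyme that activates ISG15 for conjugation, lay between 0.134 and 0.153 FPKM, on 2 or 3 estimated fragments per library.

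Several genes often used as readouts of an interferon response were at or near the floor. IFI44L was listed at the floor in 4 of 4 libraries, where 3 fragments, the limit that a count of 0 allows, stand for 0.0832, 0.0927, 0.0879 and 0.0843 FPKM in HCT116 OE, HCT116 WT, RKO OE and RKO WT. MX2 and XAF1 were at the floor in both HCT116 libraries, and in RKO they reached at most 0.0235 FPKM. OAS2 and IFI44 did not exceed 0.0719 FPKM. Between these and the abundant members lay genes with a few FPKM or less. IFI35, which helps regulate innate signalling, had 2.93 and 3.50 FPKM in HCT116 OE and WT, and 5.2 in both RKO OE and RKO WT. SP100, a component of PML nuclear bodies, had 0.941 and 1.06 FPKM in HCT116 OE and WT, and 2.17 and 2.97 in RKO OE and WT, so the RKO libraries lay above both HCT116 libraries. SAMD9, an antiviral factor, had 0.359 and 0.352 FPKM in HCT116 OE and WT, and 0.683 and 0.998 in RKO OE and WT. The helicase genes DDX60 and DHX58, which act with or on RIG-I, did not exceed 0.503 FPKM in any library. IFI30, a lysosomal thiol reductase, had 33.0 and 33.2 FPKM in HCT116 OE and WT, and 22.7 and 22.2 in RKO OE and WT, with OE and WT close together in each line.

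The 21 interferon ligand genes listed, from the alpha, beta, gamma, lambda, epsilon, kappa and omega classes, were all under 1 FPKM, with 18 at the floor in all 4 libraries and a highest value of 0.0757 FPKM.

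RefSeq promoter windows (GRCh38.p14, 250 bases before to 50 after the start) were found for 32 members. The response element core searched was GAAA, any 2 bases, then GAAA, on either strand, so that the opposite strand reads TTTC, any 2 bases, TTTC. It occurred in 20 of these 32 windows (62.5%) and in 3.57% of 35116 windows of the whole table. Matches may overlap each other, and no other motif was searched. The windows shown here span the range of levels, with core matches in capitals, and each is written in the direction of transcription. BST2 and IFI27 differed between the lines, ISG15 and IFITM3 were high in both, IFIT1 was low in both, and IFI44L was at the floor.
BST2, chr19:17405725-17405780, minus strand: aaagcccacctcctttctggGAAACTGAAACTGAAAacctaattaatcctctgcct
IFI27, chr14:94110608-94110670, plus strand: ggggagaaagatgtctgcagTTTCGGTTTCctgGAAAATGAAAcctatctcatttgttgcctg
ISG15, chr1:1013364-1013419, plus strand: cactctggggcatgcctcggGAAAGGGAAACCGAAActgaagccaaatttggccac
IFITM3, chr11:320866-320932, minus strand: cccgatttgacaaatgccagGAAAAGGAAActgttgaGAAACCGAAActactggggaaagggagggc
IFIT1, chr10:89392487-89392549, plus strand: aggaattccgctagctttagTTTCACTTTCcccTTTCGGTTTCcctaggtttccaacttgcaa
IFI44L, chr1:78620264-78620404, plus strand: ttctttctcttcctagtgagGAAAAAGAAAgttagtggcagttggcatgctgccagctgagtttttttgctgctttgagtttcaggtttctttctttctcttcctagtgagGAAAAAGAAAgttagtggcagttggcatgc

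The 6 windows were chosen among those with 2 matches, so their likeness reflects that choice. Other windows held 1 match, such as those of MX1 and PARP14, or 3, such as those of IFI6, IFIT5 and IFIH1. The windows of IFI16, IFI30 and TRIM25, which reached 10 FPKM or more in at least 1 line, held 0. Members with a match had a median level of 0.779 FPKM in HCT116 and 3.15 in RKO, as means of OE and WT, and members without a match had medians of 1.19 and 2.32. The ranges in HCT116 reached 223 FPKM with a match and 33.1 without, and in RKO 329 with a match and 30.1 without, with the lowest members near the floor in both sets. No test was made. IFIT2, IFITM2, MX2, OAS2, OASL, DHX58, IRF7, UBA7 and USP18 had no entry in the table.

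**Figure D2:**
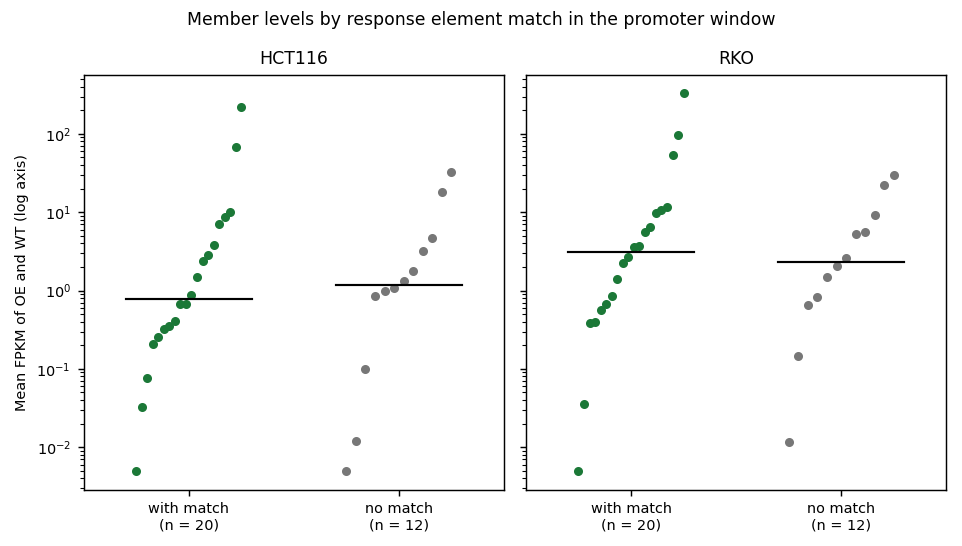
Mean FPKM of the OE and WT libraries (log axis) for members with at least 1 response element match in the promoter window (n = 20) and members with none (n = 12), in HCT116 and in RKO. Bars are medians, and the points at 0.005 stand for values at or below it. Both groups span from near 0 to above 30 FPKM in HCT116, and to 30.1 FPKM or more in RKO.

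The first comparison, OE against WT within HCT116, addressed which members differed with AVEN overexpression. On the log2(FPKM + 1) scale used for calls, no member that passed the filter on low levels differed by 2-fold or more. IFITM1, a membrane protein that blocks virus entry, was higher in OE, at 3.28 FPKM against 1.47 in WT, a 2.24-fold difference (1.27 to 4.25) that was 0.80 on the log2(FPKM + 1) scale. The RNA sensor gene DDX58, which encodes RIG-I, had 1.59 FPKM in OE and 1.03 in WT (1.55-fold, 1.16 to 2.05), and the mitochondrial protein gene IFI6 at 8.40 and 5.71 (1.47-fold, 1.13 to 1.95). IRF1 was 1.86-fold lower in OE (1.24 to 2.79), and IFITM3 was 1.40-fold lower (1.33 to 1.48), at 186 FPKM in OE and 260 in WT.

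The 2-fold threshold was applied to log2((OE + 1)/(WT + 1)) for genes with a line mean of at least 1 FPKM, which 21 of the 41 members passed in HCT116. The nearest members outside were PARP14 (0.877 FPKM) and PARP9 (0.844), and the nearest inside were SP100 (1.0) and IRF9 (1.06). None of the 21 was past 2-fold, against 2.05% of 11333 genes. The median difference of the 21 members was 0.05 on that scale, with 12 above 0 and 9 below, and the median of all 11333 genes was 0.01, with 51.4% above 0. The counting interval lay above 1 for 5 members (IFITM1, DDX58, IFI6, TRIM25 and STAT2) and below 1 for 3 (IRF1, IFITM3 and IFITM2). Over all genes the interval left out 1 for 31.1%, above it for 15.3% and below it for 15.8%. TRIM25, which activates RIG-I, had 19.4 FPKM in OE and 16.7 in WT. BST2 had 1.97 FPKM in OE and 1.02 in WT, and its interval of 0.968 to 4.59 held 1. The authors' deposited table gave a smallest p of 0.108 among the members (IFITM1), with q = 1, and marked no member as significant, against 1.5% of the genes passing the filter.

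In RKO, IFI27 was the member called past 2-fold on the log2(FPKM + 1) scale. IFI27 encodes a mitochondrial and nuclear membrane protein, and it stood at 0.946 FPKM in OE against 3.49 in WT, 3.69-fold lower in OE (1.97 to 7.4), on about 13 fragments in OE and 50 in WT. IFI16, a DNA sensor, had 22.8 FPKM in OE and 37.5 in WT, 1.65-fold lower (1.52 to 1.79). PARP14, an ADP-ribosyltransferase, was 1.83-fold lower (1.5 to 2.24), at 1.87 FPKM in OE against 3.42 in WT, and PARP9, its neighbour on chromosome 3, was 1.52-fold lower (1.18 to 2.0), at 1.64 and 2.49. BST2, which tethers budding virus to the cell surface, had 287 FPKM in OE and 370 in WT, 1.29-fold lower (1.23 to 1.35). IFI6 was 1.5-fold higher in OE (1.14 to 2.0), at 7.76 FPKM against 5.18, and IFITM1 was 1.41-fold higher (1.09 to 1.83), at 11.5 against 8.21.

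Of the 41 members, 24 passed the filter in RKO, where DDX58 (0.820 FPKM) and SAMD9 (0.841) lay just outside and ISG20 (1.39) and IRF1 (1.5) just inside. Among the 24, 1 was at least 2-fold lower and 0 were at least 2-fold higher, against 1.95% and 1.3% of 11007 genes, or 3.25% in either direction. The median difference of the 24 was -0.07, with 10 above 0 and 14 below, and the median of all genes was -0.09, with 40.7% above 0. The counting interval lay above 1 for 5 members (IFI6, IFITM1, TRIM25, ISG15 and IFITM3) and below 1 for 8, against 19.5% and 31.9% of all genes, or 51.4% on either side. The remaining members with an interval below 1 were ISG20, an RNA exonuclease gene (1.05 FPKM in OE and 1.73 in WT), TRIM21, an intracellular antibody receptor gene (9.87 and 13.4), and EIF2AK2, which encodes the kinase PKR (4.73 and 6.6). Among members under the filter in RKO, the interval lay below 1 for DDX58 (0.540 FPKM in OE and 1.10 in WT, 2.04-fold lower, 1.41 to 2.96), for the RNA sensor gene IFIH1 (0.371 and 0.754, 2.03-fold lower, 1.11 to 3.86), for IFIT1 (0.268 and 0.514) and for SAMD9 (0.683 and 0.998). Among members under the filter in HCT116, the interval lay above 1 for IFIT2 (0.473 FPKM in OE and 0.161 in WT, 2.94-fold, 1.43 to 6.74) and PARP14 (1.05 and 0.702). The share of intervals leaving out 1 was not taken over genes under the filter in either line, so nothing is read from these members as a group. The authors' deposited table marked 1 member, IFI27, as significant (p = 0.0101, q = 0.789), against 2.20% of the genes passing the filter.

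In RKO the difference between OE and WT moved with GC content across genes (Spearman rho 0.548 over 10971 genes, against -0.124 over 11305 genes in HCT116). With GC content and length taken out by a smooth fit, the log2 difference was -0.38 for IFI16 against -0.69 as deposited, -0.35 for PARP14 against -0.62, -0.15 for PARP9 against -0.40 and -0.07 for EIF2AK2 against -0.41. BST2 stood at -0.62 against -0.36, and IFI27 at -1.44 against -1.21. ISG15 (-0.05 against 0.28) and IFITM3 (-0.16 against 0.13) changed sign, and IFITM1 (0.22 against 0.45) and IFI6 (0.28 against 0.50) became smaller. TRIM21 stayed at -0.41, ISG20 stood at -0.54 against -0.42, and TRIM25 at 0.24 against 0.28. Members under the filter were not corrected. Among these, DDX58, IFIH1, IFIT1 and SAMD9 had GC contents of 40.2%, 41.7%, 41.9% and 36.1%, against a median of 49.8% over all genes passing in RKO.

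**Figure D3:**
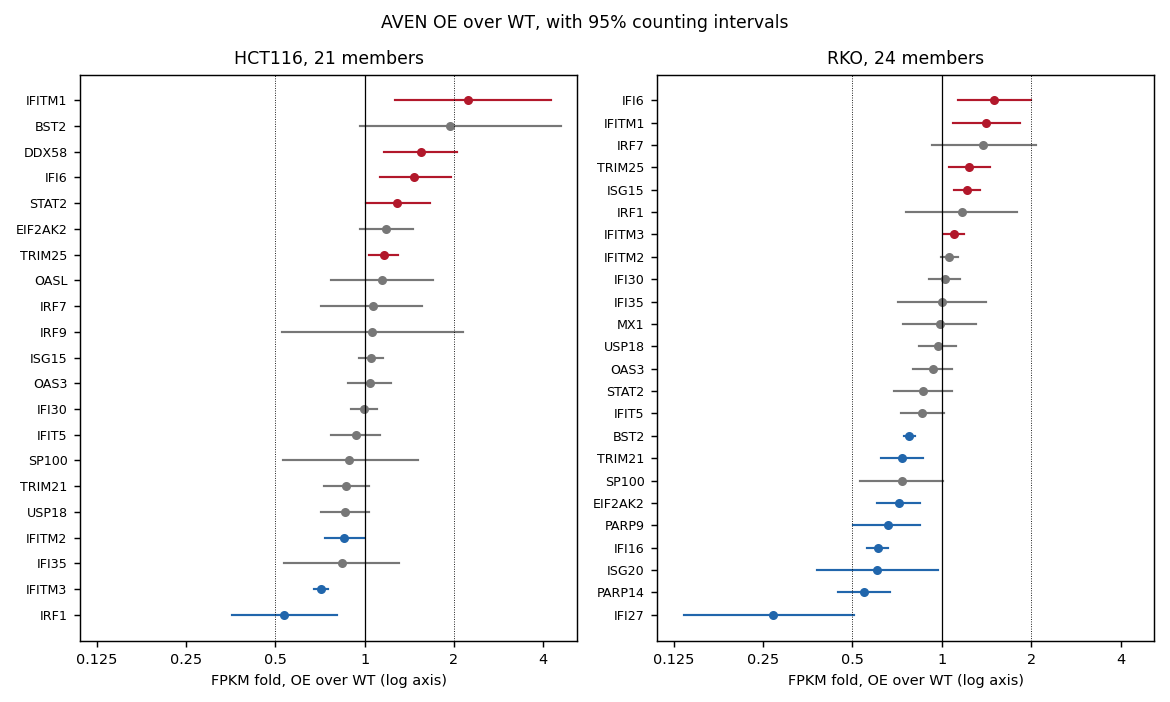
Fold of FPKM, OE over WT (log axis), for the members that passed the filter in HCT116 (21) and RKO (24), with 95% counting intervals. Red and blue mark intervals wholly above and below 1, and dotted lines mark 2-fold. IFITM1 in HCT116 lies at 2.24 and IFI27 in RKO at 0.271.

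A fit over both lines addressed differences shared by the OE libraries of HCT116 and RKO. Of the 24 members tested by limma with line as a term, none passed a Benjamini-Hochberg adjusted p of 0.05, against 0.121% of 11525 genes. At an unadjusted p of 0.05, 2 members passed (IFITM1 and IFI27), against 3.51% of all genes, and no other tool was run. IFITM1 was higher in 2 of 2 lines, with a log2 difference of 0.62 (SE 0.25, limma, Benjamini-Hochberg adjusted p = 1). IFI27 was lower in 2 of 2 lines, with a log2 difference of -0.64 (SE 0.28, limma, Benjamini-Hochberg adjusted p = 1), but in HCT116 it stood at 0.229 and 0.286 FPKM in OE and WT, on 3 and 4 fragments. IFI6 had a log2 difference of 0.49 (SE 0.24, limma, Benjamini-Hochberg adjusted p = 1). This fit treats the 2 lines as replicates with 1 residual degree of freedom, and the labels do not state separate cultures. Its p-values rest mostly on spread pooled over genes in these libraries, and they do not measure variation between cultures. Of the 18 members that passed the filter in both lines, 3 (IFITM1, IFI6 and TRIM25) had counting intervals above 1 in both lines, against 2.51% of 9874 genes, and none had them below 1 in both, against 3.67%.

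The lines themselves differed more than OE and WT did for several members. BST2 stood at 1.97 and 1.02 FPKM in HCT116 OE and WT, against 287 and 370 in RKO OE and WT, a mean 220-fold higher in RKO. IFI16 was at the floor in HCT116 OE and at 0.0237 FPKM in HCT116 WT, against 22.8 and 37.5 in RKO OE and WT. MX1, a GTPase that blocks virus replication, stood at 0.142 and 0.0125 FPKM in HCT116 OE and WT, against 3.62 and 3.67 in RKO OE and WT. IFITM3 went the other way, at 186 and 260 FPKM in HCT116 OE and WT, against 103 and 93.5 in RKO OE and WT. For BST2, IFI16 and MX1, every library of HCT116 lay below every library of RKO by far more than the libraries of a line differed.

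These levels come from separately deposited tables, so they are set side by side with no test. A member was counted when its mean log2(FPKM + 1) differed by at least 1 between lines and the libraries of the lines did not overlap. Among 24 members with a mean of at least 1 FPKM over the 4 libraries, 1 was higher in HCT116 (IFITM3, 1.16 on the log2 scale) and 6 were lower in HCT116, against 9.28% and 8.83% of 11525 genes. The 6 were BST2 (-7.06), IFI16 (-4.90), IFITM2 (-2.30), MX1 (-2.11), IFITM1 (-1.73) and IFI27 (-1.23). IFI16, MX1 and IFI27 passed the mean over 4 libraries through RKO alone, with HCT116 means of 0.0119, 0.0770 and 0.257 FPKM, so the count and its direction rest partly on that filter and nothing is read from them about the list. In the comparison of OE libraries alone, IFI27 (-0.66) and IFITM3 (0.85) were no longer past 2-fold. OASL, an oligoadenylate synthetase-like gene, fell short of the mean of 1 FPKM but stood at 1.63 and 1.42 FPKM in HCT116 OE and WT, against 0.0568 in RKO OE and the floor in RKO WT. The median difference of the 24 members, which the same filter chose, was -0.37, and that of all genes was -0.08. The mitochondrial share of summed FPKM was 45.6% and 44.7% in HCT116 OE and WT and 30.3% and 32.8% in RKO OE and WT. After rescaling without them, the 7 members were still counted, and TRIM25 (19.4 and 16.7 FPKM in HCT116 OE and WT, 10.2 and 8.25 in RKO OE and WT) was counted as well.

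**Figure D4:**
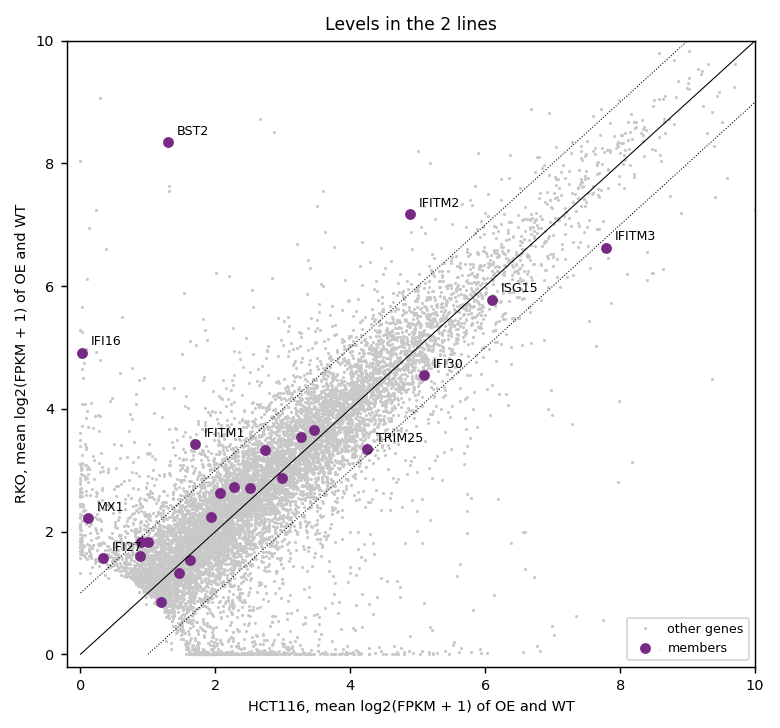
Mean log2(FPKM + 1) of the OE and WT libraries in HCT116 (x axis) and RKO (y axis) for genes averaging 1 FPKM or more, with the 24 members in purple. The solid line marks equal levels and the dotted lines a difference of 1, and 39 genes above 10 on either axis are not drawn. BST2 and IFI16 lie far above the dotted line, and ISG15 and IFI30 lie near the solid one.

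The IFITM genes form a cluster on chromosome 11 in which the order of levels differed between the lines. IFITM1 stood at 3.28 and 1.47 FPKM in HCT116 OE and WT, and at 11.5 and 8.21 in RKO OE and WT. IFITM2 stood at 26.3 and 30.7 FPKM in HCT116 OE and WT, and at 148 and 139 in RKO OE and WT. In HCT116 the order was IFITM3, IFITM2, IFITM1 in both libraries, and in RKO it was IFITM2, IFITM3, IFITM1 in both. The 3 genes are close paralogs, IFITM1 (313506 to 315272) lies within the annotated span of IFITM2 (307631 to 315272) on the plus strand and shares exons with it, and the sources used here do not say how reads in such exons were assigned or whether strand was used. The values of single IFITM genes are therefore uncertain. IFI30, IRF9, SP100, TRIM25, IFIT2 and UBA7 also share exons with another annotated gene on their strand. On the opposite strand, exons of PARP9 overlap those of DTX3L. IFITM3, IRF1, MX1, EIF2AK2, IFIT2, TRIM25, SP100, OAS1 and XAF1 also overlap an annotated gene on the opposite strand. If strand was not used, the values of these genes are uncertain as well.

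Genes upstream of the members were measured as separate lists. Of 11 receptor and JAK-STAT genes, 10 had a line mean of at least 1 FPKM in each line, JAK2 being the exception (0.245 to 0.629 FPKM). In HCT116 none of the 10 was past 2-fold, against 2.05% of all genes, and the median difference was 0.14, against 0.01. Among the highest and lowest there were IFNGR2 (14.9 and 11.4 FPKM in OE and WT), IFNAR1 (2.91 and 2.93) and IFNLR1 (3.35 and 3.91). In RKO 1 of the 10 was at least 2-fold lower, IFNAR1, a chain of the interferon alpha and beta receptor, at 2.62 FPKM in OE against 7.63 in WT (2.91-fold lower, 2.36 to 3.62), and the median was -0.18. Over all genes in RKO, 1.95% were at least 2-fold lower and the median was -0.09. GC-corrected values are not given for the upstream lists, so nothing is read from these differences about the pathway. IFNGR1 stood at 2.33 and 3.83 FPKM in RKO OE and WT, IFNGR2 at 28.7 and 26.5, and IFNLR1 at 2.84 and 2.28.

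Of 11 nucleic acid sensing genes found, 8 passed the filter in each line, with medians of 0.04 in HCT116 and 0.02 in RKO. Over all genes the medians were 0.01 and -0.09. In HCT116 the adaptor gene TRAF3 was at least 2-fold higher, at 6.13 FPKM in OE against 1.47 in WT (4.18-fold, 3.26 to 5.47), while in RKO it stood at 5.41 and 5.4. Over all genes in HCT116, 1.02% were at least 2-fold higher. IRF3, the factor that turns on interferon beta, stood at 7.61 FPKM in HCT116 OE and 13.1 in HCT116 WT, and at 10.3 and 8.91 in RKO OE and WT. The cytosolic DNA sensor gene CGAS stood at no more than 0.0129 FPKM in HCT116, against 7.4 and 7.92 in RKO OE and WT. STING1, the adaptor downstream of CGAS, stood at 4.19 and 2.84 FPKM in HCT116 OE and WT, against 0.0315 and 0.0102 in RKO OE and WT. Of CGAS, IFI16 and STING1, set together after their values were seen, each was under 0.1 FPKM in both libraries of 1 line and above 2 FPKM in both libraries of the other. That shared split reflects how they were picked, and its share over all genes was not taken. Genes of other lists, such as PTPN6 and KRT19, split between the lines in the same way.

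**Figure D5:**
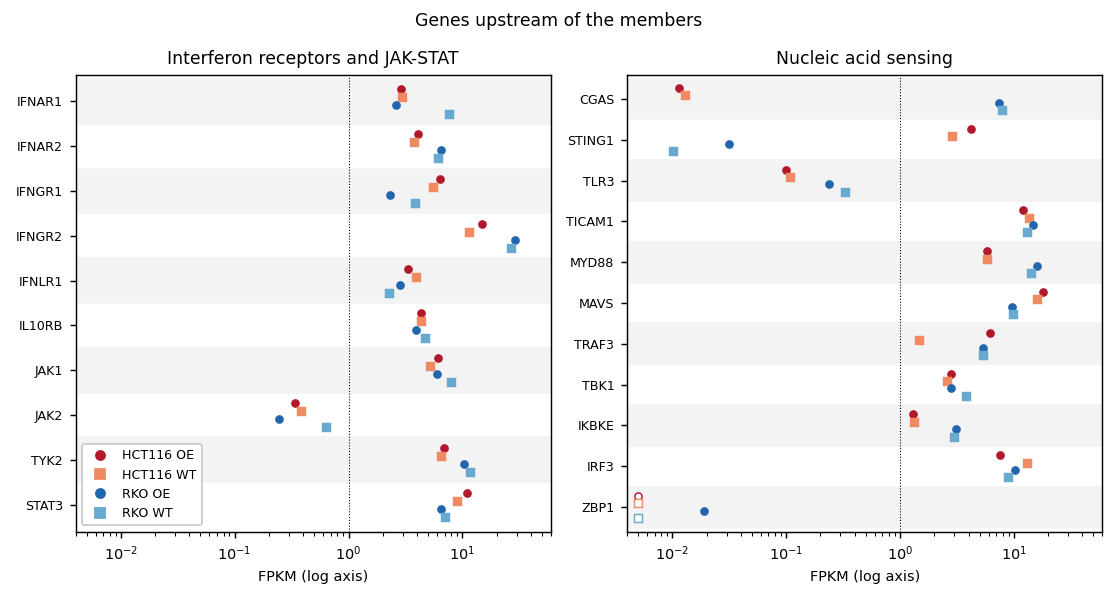
FPKM (log axis) of interferon receptor and JAK-STAT genes, and of nucleic acid sensing genes, in the 4 libraries, with HCT116 in red, RKO in blue, circles for OE and squares for WT. Open symbols at the left edge are values under 0.005 FPKM. CGAS and STING1 separate the lines in opposite directions.

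Negative regulators of interferon signalling had median differences of 0.08 over 8 genes in HCT116 and -0.17 over 6 in RKO. Over all genes the medians were 0.01 and -0.09. None of them was past 2-fold, against 2.05% of all genes in HCT116 and 3.25% in RKO. ADAR, an RNA-editing enzyme that keeps cellular RNA from activating sensors, stood at 16.3 FPKM in HCT116 OE against 23.0 in HCT116 WT, and at 25.4 in RKO OE against 17.6 in RKO WT. ADAR was 1.41-fold lower in HCT116 OE (1.31 to 1.51) and 1.44-fold higher in RKO OE (1.35 to 1.54), and the difference between lines was not tested. Of 9874 genes passing the filter in both lines, 13.9% had intervals on opposite sides of 1. RKO differences moved with GC content, and no corrected values are given for this list. SOCS1 stood at 1.24 and 1.03 FPKM in HCT116 OE and WT, and SOCS3 at 3.43 and 2.98 in RKO OE and WT. IRF2 stood at 6.39 and 9.04 FPKM in RKO OE and WT.

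A further list of 36 symbols of interferon-stimulated genes, of which 35 rows were found, gave a median of 0.06 over 17 genes in HCT116, 13 above 0. Over all genes the median there was 0.01, with 51.4% above 0. In RKO the median was -0.26 over 22 genes, 5 above 0, against -0.09 and 40.7% above 0 over all genes. RKO differences moved with GC content, no corrected values are given for this list, and the cause was not tested. None of its genes was past 2-fold in either line, against 2.05% of all genes in HCT116 and 3.25% in RKO. In HCT116, HERC5, the ligase that attaches ISG15 to new proteins, had 2.77 FPKM in OE and 1.89 in WT, DTX3L at 1.71 and 1.2, SAMHD1 at 0.925 and 1.42, and PNPT1 at 4.50 and 5.57. In RKO, NMI had 2.96 FPKM in OE and 5.13 in WT (1.73-fold lower, 1.29 to 2.37), HERC6 at 2.37 and 4.10 (1.73-fold lower, 1.34 to 2.27), LGALS3BP at 1.88 and 1.38, and PARP12 at 6.66 and 5.90. Between the lines, LGALS3BP, a secreted glycoprotein gene, stood at 103 and 87.3 FPKM in HCT116 OE and WT, opposite in direction to BST2. RSAD2, CXCL10 and CXCL11, which interferon induces strongly in other cells, did not exceed 0.0108 FPKM in any library.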

How the data were processed

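Poly(A) RNA of 4 libraries, 1 per group, was analysed from 2 deposited tables, 1 per line. FPKM values were made by the authors, and the deposited fold (ratio), log2 fold, p-value and q-value are from the authors' OE against WT comparison within each line. HISAT2 2.0, StringTie 1.3.0 and Bowtie 0.12.2 appear in the submitters' processing notes beside a mouse build. The identifiers are human Ensembl ones, and the build used is therefore unsettled. Groups came from sample titles. Positions, transcript lengths, GC content and shared exons (at least 50 bases) came from GENCODE 29 on GRCh38.

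Fragments were estimated from FPKM by taking the commonest value of FPKM times kilobases in single-exon genes of at least 400 nucleotides as 1 fragment. Of values up to about 5 fragments, 44.7% to 45.6% were no more than 2% away from a whole number of fragments or a midpoint, so depth is an estimate. For each gene, FPKM was turned into fragments with the mean length of its GENCODE transcripts. Where the expressed transcript is longer or shorter than that mean, fragments and intervals are off accordingly. Copies of a fragment could not be told apart, so intervals may be too narrow.

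Differences used a pseudocount of 1 FPKM, which understates the change of low genes. The two-sided limma test (3.58.1, R 4.3.3) took log2(FPKM + 1), terms for genotype and line, and a prior trended on level. Its median of 12.0 prior degrees of freedom means that standard errors rest mostly on pooled spread. The fit was tried on simulated data with changes far larger than any member showed in it. Recovery of differences of the members' size was therefore not checked. GC and length were corrected by lowess (statsmodels 0.14.6).

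The members and lists were chosen with earlier results of these data known. Named were AVEN, the members, with full values for those with the largest differences between OE and WT or between lines, and from each other list up to 2 genes at either end per line. Settings varied were the pseudocount, filter, centring, mitochondrial rescaling, GC correction, shared exons and terms of the fit. A gene of the receptor and JAK-STAT list is counted there but not reported here by itself.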

Additional observations from a re-analysis of the deposited data

Results flagged for a closer look

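The direction of the OE difference was opposite in the 2 lines for IFITM3, DDX58 and PARP14, with counting intervals that left out 1 in both, in the values as deposited. The log2 difference of IFITM3 was -0.48 in HCT116 and 0.13 in RKO, that of DDX58 was 0.35 and -0.45, and that of PARP14 was 0.27 and -0.62, in the same order. After GC and length correction, IFITM3 was at -0.38 in HCT116 and -0.16 in RKO, which is the same direction. DDX58 in RKO (0.540 FPKM in OE and 1.10 in WT) and PARP14 in HCT116 (1.05 and 0.702) were below the filter of 1 FPKM. They have no corrected value, so the opposite directions of DDX58 and PARP14 could not be checked against GC content. After correction PARP14 in RKO was at -0.35 and DDX58 in HCT116 at 0.21, both smaller in size than as deposited. Among all genes passing the filter in both lines, 13.9% had intervals on opposite sides of 1, and of the 18 members passing in both lines 1 did, IFITM3. The medians over the members were 0.05 in HCT116 and -0.07 in RKO, and those over all genes had the same signs, at 0.01 and -0.09. The signs of the member medians depended on the setting. Centred on all genes the RKO median was 0.02, and at 5 FPKM or more the medians were -0.01 in HCT116 and 0.01 in RKO. With 1 library per group, none of these differences between lines was tested.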

How the results depend on the processing

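Of 37 comparisons of a summary value with an alternative, 35 were labelled the same. For medians this meant staying between -0.19 and 0.20 in HCT116 and between -0.40 and 0.13 in RKO. Those limits come from the members' own values, so a change of sign within them was labelled the same. Counts of members apart between lines from 5 to 10 were labelled the same as the main count of 7. The 35 is therefore a loose measure of stability. With a pseudocount of 0.1, 1 member (IFITM1, 1.11) was past 2-fold in HCT116, and at 5 FPKM or more, 0 members were past 2-fold in RKO, since IFI27 was no longer tested. After GC and length correction the RKO differences of IFITM3 (-0.16) and ISG15 (-0.054) were of opposite sign. Medians ranged from -0.01 to 0.10 in HCT116 and from -0.17 to 0.02 in RKO, and in RKO centring on all genes gave 0.02. The count of members apart between lines was 10 with a pseudocount of 0.1, 5 at 5 FPKM or more and 8 after mitochondrial rescaling. Comparisons of WT libraries only (9) and OE libraries only (5) were added after the data were seen. In limma, 0 members passed under any of the 4 alternatives. The cause was not tested beyond the construction of each alternative. The labels give no replicate numbers to pair libraries by, but the limma fit with line as a term pairs OE with WT within each line, and without that term 0 members passed as well. Leaving out a library was not possible with 1 per group. Precision follows fragments rather than FPKM alone. IFI27 in HCT116 rested on 3 and 4 fragments in OE and WT, whereas SAMD9 in RKO, also under 1 FPKM, rested on 79 and 120.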
